A study of Homo sapiens with 4 samples.

Results

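Interferon-stimulated genes and the sensors of foreign nucleic acid were examined in U87MG cells that carried a plasmid for the microRNA miR-490 or its empty control plasmid. The set was a list of 41 gene symbols, of which 39 had a probe set assigned to that gene alone and were measured, among 18132 genes on the array. STAT2 and USP18 were not analysed here. The members are a fixed list of symbols, drawn up with earlier results of these arrays known, and they fell into 7 sensors, 6 signalling factors and ligands, and 26 effectors.

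U87MG is an established human glioma cell line. The control group received the vector PCDNA and the other group the overexpression vector PC-490, so every sample had been transfected with plasmid DNA, and there was no untransfected group in this comparison. RNA was collected 48 h after transfection and hybridised, from 100 ng each, to PrimeView 3' expression arrays, with 2 arrays per group. Values are log2 expression, on which a difference of 1 is a doubling. The labels leave unsaid whether replicates came from different cultures; the p-values then reflect the scatter of these arrays alone, and that scatter may be technical.

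Cells recognise RNA and DNA that should not be in the cytosol with a small set of sensors. RIG-I and MDA5, the products of RIGI and IFIH1, bind viral RNA and signal through the mitochondrial adaptor MAVS, while cGAS and IFI16 respond to DNA. Signalling leads to secretion of interferon beta, which acts on its receptor and, through a transcription factor complex that holds IRF9, switches on genes whose promoters carry an interferon-stimulated response element. Transfected plasmid is a known trigger of the DNA arm in many cell types. Most sensors are themselves interferon-stimulated, so the pathway reinforces its own parts.

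The overexpressed microRNA gives 2 mature strands in RefSeq (GRCh38.p14), at chr7:136903242-136903263 and chr7:136903205-136903224, both on the plus strand. They are shown because they are the treatment. Capitals mark the seed, bases 2 to 8, and the 2 seeds differ. The labels do not say which strand was active.
hsa-miR-490-3p: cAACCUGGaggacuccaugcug
hsa-miR-490-5p: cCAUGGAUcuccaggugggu

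A sequence feature read for the members was the interferon response motif. Interferon-stimulated genes were listed on purpose, so a high share comes with the choice of list and is a description only. RefSeq promoter windows of 300 bases, from 250 before to 50 after a gene's start (GRCh38.p14), were at hand for 33 of the 41 members. The core searched for on both strands was GAAA, any 2 bases, then GAAA, to which the complex that holds IRF9, and other IRF proteins, are known to bind. It was found in 19 of the 33 members, 57.6%, against 4.38% of the 27305 genes with a window, where a gene with several windows counted once. In 13 members a single window held 2 or more copies, which may overlap each other. The gamma-activated site TTCNNNGAA, a motif of the interferon gamma response, reads alike on both strands and can overlap the first core. It was found in 12 of the 33 members, 36.4%, against 9.38% of genes. A match describes the letters only, and no binding was measured. The members without a window were OAS2, IRF7, USP18, IFIT2, MX2, OASL, TRIM22 and PML.

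The stretches below come from IFIH1 and IRF1, which are among the members whose results are described first, and from 3 effectors known for their strong response to interferon. IFIT2 and SAMHD1, described with IFIH1 and IRF1, are not shown: IFIT2 had no window, and SAMHD1 had no match to either motif. IRF1 had a gamma-activated site and no response element core. Capitals mark the motif, which in the stretches of IFIH1 and IFIT1 lies on the strand opposite to the gene. A further core of IFIH1, at base -21 from the gene's start and on the gene's own strand, is not shown. The IFIH1 stretch is chr2:162318813-162318858, minus strand, and holds 2 overlapping cores; the IRF1 stretch is chr5:132490874-132490912, minus strand, and holds 1 gamma-activated site. IFIT1 is shown at chr10:89392492-89392544 on the plus strand, ISG15 at chr1:1013369-1013414 on the plus strand and IFI6 at chr1:27672261-27672363 on the minus strand, with 2, 2 and 3 cores. All lie upstream of the gene's start and read 5′ to 3′ along the gene.
IFIH1: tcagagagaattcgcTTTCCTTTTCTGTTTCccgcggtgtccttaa
IRF1: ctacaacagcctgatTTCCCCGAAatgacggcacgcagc
IFIT1: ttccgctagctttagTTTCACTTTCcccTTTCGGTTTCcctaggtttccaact
ISG15: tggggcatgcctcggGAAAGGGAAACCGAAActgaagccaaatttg
IFI6: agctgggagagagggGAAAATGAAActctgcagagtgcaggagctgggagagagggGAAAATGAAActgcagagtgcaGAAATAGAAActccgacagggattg

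**Figure D1:**
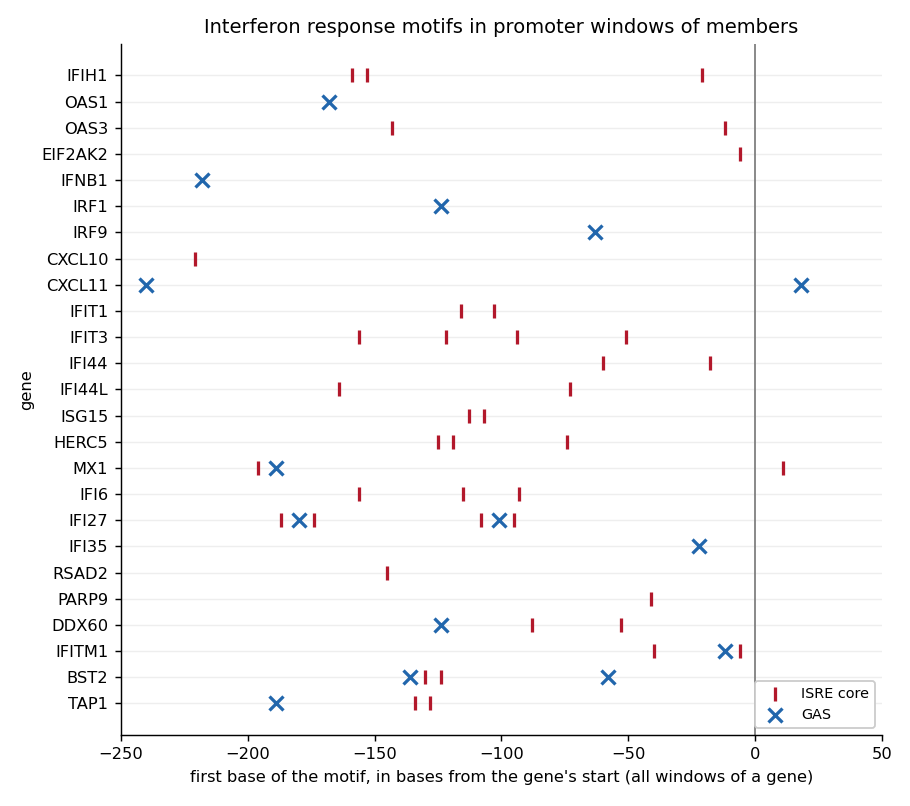
Distance from the gene's start (x axis, bases; negative is upstream) of each interferon-stimulated response element core (ISRE core, bars) and gamma-activated site (GAS, crosses) in the promoter windows of members with at least 1 match, all windows of a gene on 1 line. Cores were found in 19 members and gamma-activated sites in 12, and IFI27, MX1, DDX60, IFITM1, BST2 and TAP1 had both.

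Between the groups, the interferon genes lay close together. None of the 39 members passed an adjusted p of 0.05 (limma, Benjamini-Hochberg over 18132 genes), where 0 of all genes, 0%, passed, and the smallest adjusted p of any member was 0.785. Before adjustment, p was under 0.05 in 4 members, each of them lower with miR-490: the sensor IFIH1, the transcription factor IRF1, and the effectors IFIT2 and SAMHD1. That is 10.3% of the members, against 2.88% of all genes lower at that level; 0 members were higher, against 3.31% of all genes. The median log2 fold change was -0.02 over the members and 0.005 over all genes. Differences of all members lay between -0.325 and 0.185, and their 95% intervals, not adjusted for the number of members, reached from -0.586 to 0.44, or from 0.666 to 1.36 times the control level.

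The count of 4 members turned on single arrays, and the names in it also on the use of limma's shared prior. Without miR-490 replicate 2 it was 0, where 2.01% of all genes were lower and 2.07% higher at that level. Without miR-490 replicate 1 it was 2, OAS3 lower and OAS1 higher, against 2.08% and 2.23% of all genes. Leaving out control replicate 1 gave 2, IFIT2 and IFITM1, both lower, against 3.14% of genes lower and 2.22% higher. Leaving out control replicate 2 gave 3, IFIH1, IRF1 and SAMHD1, all lower, against 2.71% and 4.37%. An ordinary test on each gene's own variance, without limma's shared prior, again gave 4, of which IRF1 alone was among those named above: IRF1, IFI6 and TAP1 were lower and PARP9 higher, against 3.03% and 2.70% of all genes. With an intensity trend in limma's prior the same 4 as in the main fit were lower, against 3.40% of genes lower and 2.65% higher. A robust prior added to the trend gave these 4 again, against 3.41% and 2.63%. On quantile-normalised values these 4 were lower and IFNB1 was higher, against 3.08% and 2.98%. With 2 arrays against 2, an exact two-sided permutation test of a single gene cannot give a p below 0.333.

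The arrays of the groups did not overlap in 12 members. In 9, 23.1%, both miR-490 arrays lay below both control arrays, against 16.1% of all genes: IFIH1, EIF2AK2, IRF1, IRF7, IFIT2, IFIT3, IFI6, SAMHD1 and TAP1. In 3, 7.69%, both lay above, against 16.5% of all genes: IFNB1, CMPK2 and PARP9. By sign of the difference alone, 21 members had a lower mean with miR-490, 16 a higher one and 2 an equal one, so 53.8% were lower, against 47.3% of all genes. None of these counts is given a test.

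Many of these genes were read well above the middle of the array in both groups. The array median over all probe sets, 5.15 to 5.17, served as the reference for level. The mean of the 4 arrays was above it in 29 of the 39 members, 74.4%, against 56.3% of all genes, with the members' median 1.34 log2 units above it. That median has no value over all genes beside it. Each gene was read from its brightest probe set and the reference from all sets, which raises both shares. Of the members' 72 other probe sets, 32 had a mean above the array median. Effectors stood above it in 22 of 26 cases, sensors in 4 of 7 and signalling factors in 3 of 6. IFNB1, CXCL11, MX1 and RSAD2 lay below the lower quartile of the probe sets, 3.16 to 3.20, on all 4 arrays; they are named after their values were seen. A signal of a probe set depends on its probes, so levels are set against the array and not against each other.

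**Figure D2:**
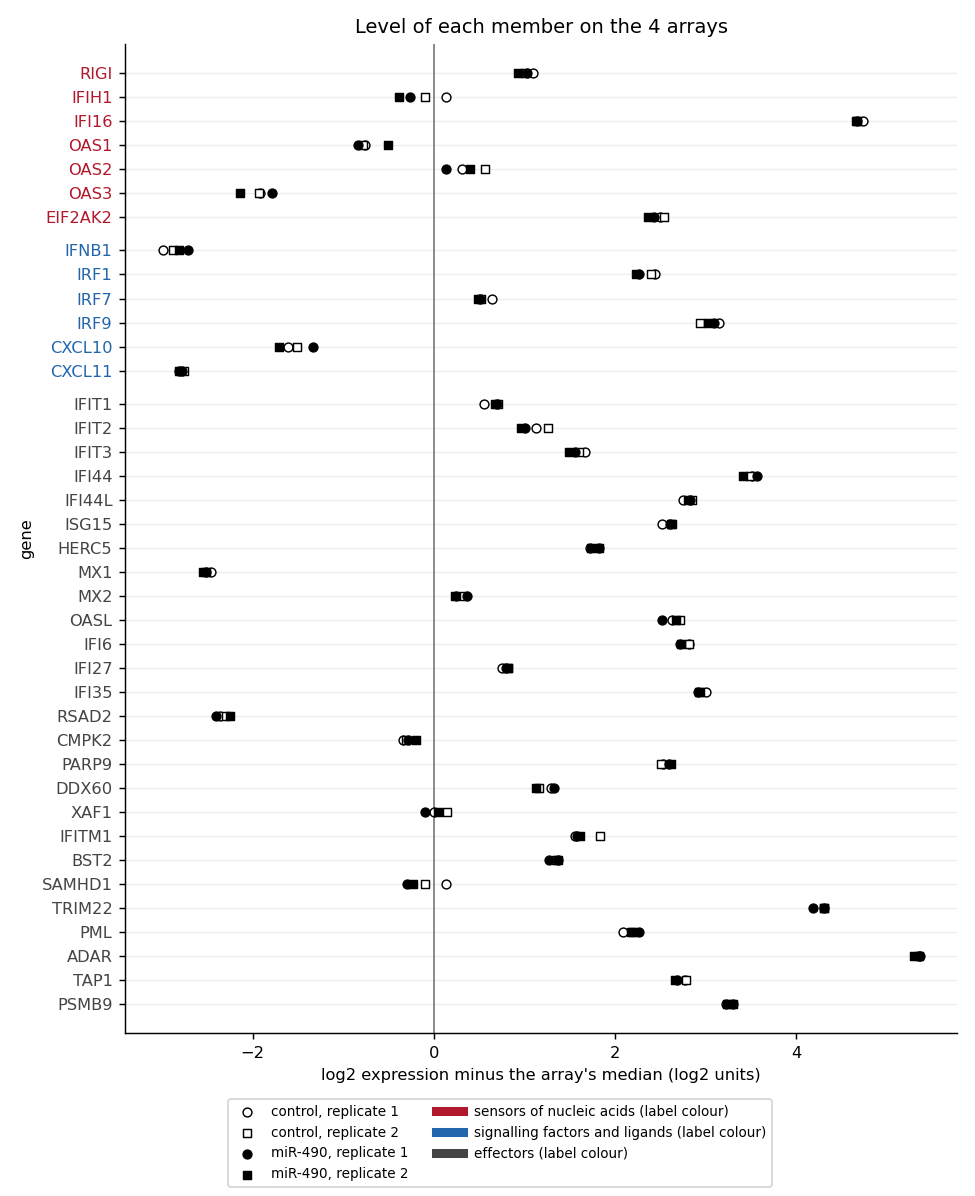
Level of each of the 39 members on the 4 arrays (x axis: log2 expression minus the array's own median, in log2 units; open symbols control, filled symbols miR-490; label colour gives the role). Open and filled symbols of most genes fall together, and 29 genes have a mean to the right of the median line.

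Among the sensors, 6 of 7 had lower and 1 a higher mean with miR-490, and the median log2 fold change was -0.06. The median was -0.0675 on quantile-normalised values, -0.07 after centring the arrays on their medians, -0.03 without control replicate 1, -0.045 without control replicate 2, -0.065 without miR-490 replicate 2 and -0.105 without miR-490 replicate 1. Averaged over the 7 genes, the control arrays stood at 6.02 and 6.01 and the miR-490 arrays at 5.93 and 5.93 (mean log2 expression). These averages lie apart by more than the arrays of a group do, and they include 3 genes at or below the array median. No averages over other sets of 7 genes were made for comparison. Among single genes, 16.1% had both miR-490 arrays below both control arrays. IFIH1 had the largest of the 7 differences, -0.325. Without IFIH1, the sensor averages of the groups lie apart by less than the arrays of a group do. On the mean of each gene's probe sets the sensor median was -0.0583, from -0.32 for IFIH1 to -0.0017 for RIGI. The averages of the other roles overlapped between the groups, at 4.95 and 4.945 against 5.0 and 4.91 for signalling factors and at 6.79 and 6.84 against 6.79 and 6.80 for effectors. The leukocyte markers described further on were apart in the same direction as the sensors, at 5.17 and 5.17 against 5.11 and 5.12; their part in the sensor values was not tested.

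IFIH1 encodes MDA5, which binds long double-stranded RNA. It read 5.28 and 5.06 on the control arrays and 4.90 and 4.79 on the miR-490 arrays. Both miR-490 arrays were lower, and the gap of 0.16 between the groups was smaller than the gap of 0.22 between the control arrays. The log2 fold change was -0.325 (SE 0.0978, 95% interval -0.586 to -0.064, n = 2 per group; limma adjusted p 0.785), which is 0.798 times the control level. With each array left out in turn it ranged from -0.435 to -0.215, and the unadjusted p (limma) from 0.0247 to 0.169. Its level lay 0.153 below the array median on average.

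RIGI encodes the sensor of RNA with a free triphosphate end. It read 6.24 and 6.17 in controls and 6.19 and 6.10 with miR-490. The groups overlapped (log2 fold change -0.06, 95% interval -0.234 to 0.114, limma). Its 2 other probe sets gave -0.025 and 0.08, and the mean of its sets gave -0.0017. For the 2 RNA helicases the point estimates thus differ, but the difference between them was not tested. DHX58, the third helicase of the family and not a member, had 5.33 on both control arrays and 5.26 and 5.20 with miR-490. Its 3 other probe sets ran from -0.025 to 0.295 (log2 fold change), and 1 of them was negative.

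IFI16, a DNA-binding sensor of the nucleus and cytosol, was bright and steady. Its arrays read 9.88 and 9.82 in controls and 9.83 and 9.84 with miR-490, a log2 fold change of -0.015 (95% interval -0.166 to 0.136, limma). The groups overlapped. EIF2AK2, the gene of the kinase PKR, which stops translation on binding double-stranded RNA, read 7.65 and 7.70 against 7.59 and 7.53. Both miR-490 arrays were lower, by a mean of 0.115, and the difference did not pass (limma adjusted p 0.811).

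OAS1, OAS2 and OAS3 make linked adenylates that act as second messengers on sensing double-stranded RNA, and they neighbour each other on chromosome 12. OAS1 read 4.39 and 4.38 in controls and 4.32 and 4.66 with miR-490, so the miR-490 arrays fell on either side of the controls. OAS2 read 5.46 and 5.72 against 5.29 and 5.57, with a wide spread in both groups (log2 fold change -0.16, 95% interval -0.529 to 0.209, limma). The 4 other probe sets of OAS2 ran from -0.075 to 0.145, 3 of them negative, and the mean of its sets gave -0.042. OAS3, dim, read 3.23 on both control arrays and 3.37 and 3.03 with miR-490. The probe sets of OAS1 disagreed: the 3 others had log2 fold changes of -0.215, -0.025 and -0.15, all opposite to the 0.105 of the set used, and the first of them had an unadjusted p of 0.0328 (limma). No direction is given for OAS1.

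Signalling factors and ligands showed no common direction, with 3 higher, 2 lower and 1 equal mean; the median of their differences was 0.0125 (log2). Among the 3 above the array median, IRF1, IRF7 and IRF9, the median was -0.07. IRF1 is a transcription factor induced by interferon gamma and inflammatory cytokines. It read 7.59 and 7.56 in controls and 7.42 and 7.40 with miR-490, with a gap of 0.14 between the groups against 0.03 between the control arrays. The log2 fold change was -0.165 (SE 0.0541, 95% interval -0.309 to -0.0207; limma adjusted p 0.785), or 0.892 times the control level. On the mean of its probe sets it was -0.101. It ranged from -0.18 to -0.15 with each array left out, with an unadjusted p (limma) between 0.0468 and 0.0879.

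IRF7, the factor that amplifies interferon production, read 5.79 and 5.68 against 5.67 and 5.66. The groups were separated by only 0.01, less than the 0.11 between the control arrays. IRF9, the DNA-binding part of the complex on the response element, read 8.30 and 8.10 in controls and 8.25 and 8.20 with miR-490. Its miR-490 arrays lay between the control arrays.

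The secreted ligands were all dim. IFNB1, the gene of interferon beta itself, read 2.16 and 2.28 in controls and 2.45 and 2.36 with miR-490. It was higher on both miR-490 arrays, by 0.185 (95% interval -0.0093 to 0.379; limma adjusted p 0.785), at a level 2.85 below the array median. CXCL10, a chemokine for T cells that interferon induces strongly, read 3.54 and 3.65 against 3.83 and 3.46. CXCL11, its neighbour on chromosome 4 and a ligand of the same receptor, read 2.34 and 2.40 against 2.38 and 2.36. In both, the groups overlapped.

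Of the 26 effectors, 13 had lower, 12 higher and 1 an equal mean, and the median log2 fold change was -0.01; it was 0.0092 on the mean of each gene's probe sets. Their standard errors ran from 0.0532 to 0.108. SAMHD1 encodes an enzyme that depletes deoxynucleotides and so restricts retroviruses. It read 5.28 and 5.06 in controls and 4.86 and 4.94 with miR-490, lower on both arrays and 0.829 times the control level on average (log2 fold change -0.27, 95% interval -0.522 to -0.0179; limma adjusted p 0.785). The control arrays were 0.22 apart and the groups 0.12. With each array left out the value ranged from -0.38 to -0.16, and on the mean of its probe sets it was -0.0988.

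The IFIT proteins bind viral RNA ends and block their translation. IFIT2 read 6.28 and 6.42 in controls and 6.17 and 6.13 with miR-490, which gave 0.871 times the control level (log2 fold change -0.20, 95% interval -0.392 to -0.0084; limma adjusted p 0.785). Its range with each array left out was -0.27 to -0.13. Its chromosomal neighbour IFIT3 had a log2 fold change of -0.10 and IFIT1 one of 0.065, with 95% intervals that include 0. IFIT1 overlapped between the groups and IFIT3 did not.

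TAP1, which carries peptides into the endoplasmic reticulum for presentation on class I molecules, read 7.92 and 7.94 in controls and 7.84 and 7.83 with miR-490. PARP9, an ADP-ribosyltransferase of the antiviral response, read 7.68 and 7.67 against 7.75 and 7.79. In both genes the groups were apart by more than the arrays of a group, in opposite directions, and neither passed (limma adjusted p 0.818 and 0.822). The immunoproteasome subunit PSMB9, beside TAP1 on chromosome 6, had a log2 fold change of 0.015 and overlapping groups.

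The effectors furthest above the array median are given next. ADAR, which edits adenosine to inosine in double-stranded RNA, read 10.51 on both control arrays and 10.51 and 10.47 with miR-490. TRIM22, a ubiquitin ligase with antiviral activity, read 9.46 on both control arrays and 9.34 and 9.48 with miR-490. The groups overlapped in both.

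Among the other effectors, log2 fold changes lay between -0.10 and 0.09, and every 95% interval included 0 (limma). The ubiquitin-like modifier ISG15 had 0.05 and its ligase HERC5 0.015. IFI44 and IFI44L, neighbours on chromosome 1, had 0.00 and 0.025. Their other probe sets above the array median gave -0.15 and -0.095, and dimmer ones reached 0.31 and 0.115. MX1 and MX2, antiviral GTPases side by side on chromosome 21, had -0.035 and 0.02, with MX1 near the bottom of the array at 2.62 to 2.69. RSAD2, the gene of viperin, and its neighbour CMPK2, a nucleotide kinase, had 0.01 and 0.09. For the membrane proteins that hold virus at the cell surface or in endosomes, BST2 had -0.03 and IFITM1 -0.09. IFI6, IFI27 and IFI35 had -0.075, 0.03 and -0.04; OASL, a relative of the OAS enzymes without their activity, -0.07. DDX60, XAF1 and PML, a helicase, a pro-apoptotic factor and the organiser of nuclear bodies, had 0.015, -0.085 and 0.085.

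**Figure D3:**
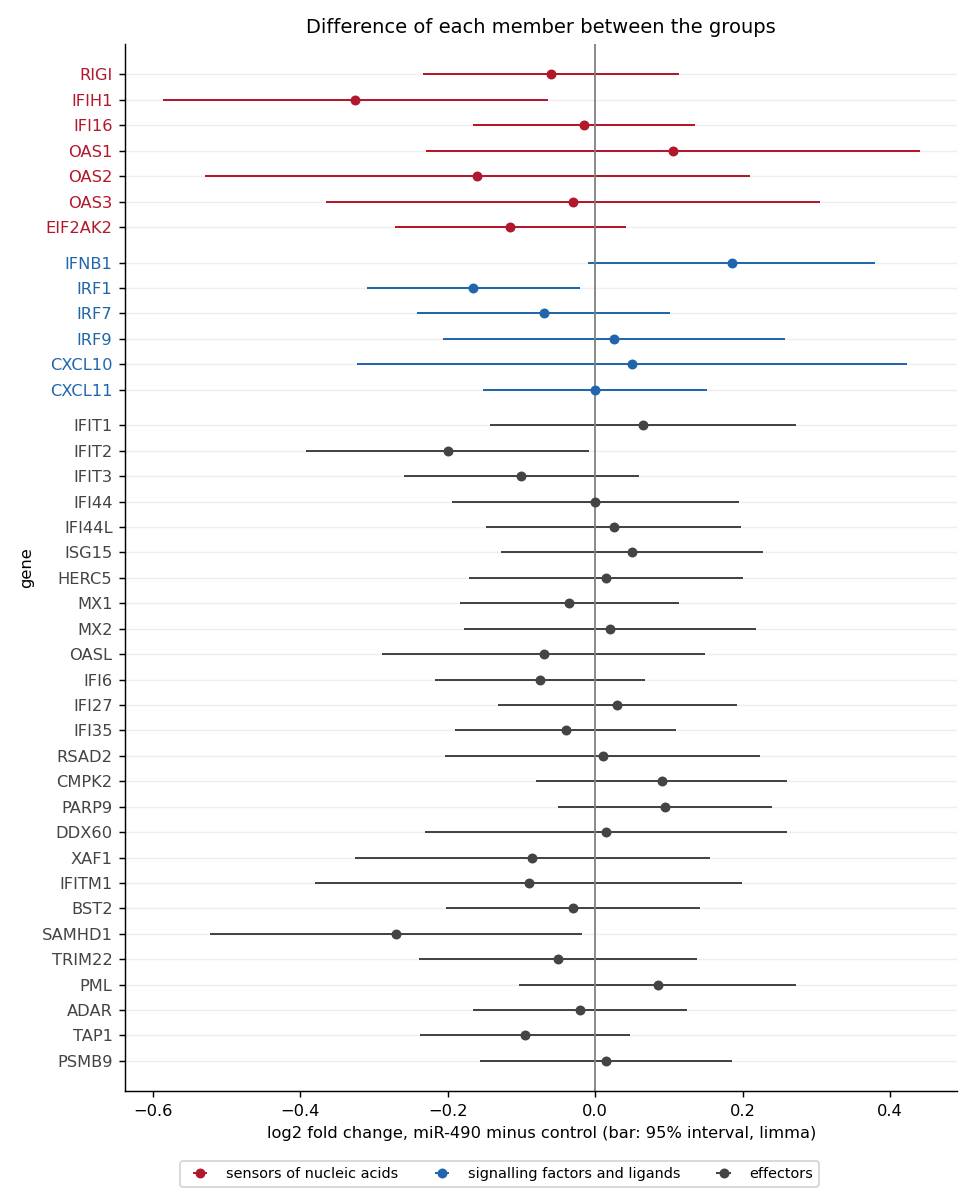
Log2 fold change of each member (x axis: miR-490 minus control; points are means of 2 arrays per group and bars 95% intervals from limma, not adjusted for the number of genes; colour gives the role). The intervals of IFIH1, IRF1, IFIT2 and SAMHD1 lie below 0, those of the remaining members include 0, and no interval goes beyond -0.586 or 0.44.

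Set beside all genes, the members' differences had much the same width. The median size of the log2 fold change, whatever its sign, was 0.06 in the members and 0.06 in all genes. In a bin 0.055 wide around 0 lay 11 members, 28.2%, and 24.96% of all genes. Above 0.1375 lay 1 member, IFNB1, which is 2.56% of members against 10.4% of all genes. Below -0.1375 lay 5, IFIH1, SAMHD1, IFIT2, IRF1 and OAS2, which is 12.8% against 8.70%. Members with a response element core in a promoter window had a median log2 fold change of 0.00 (19 genes), and measured members whose windows lacked it -0.015 (13 genes).

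**Figure D4:**
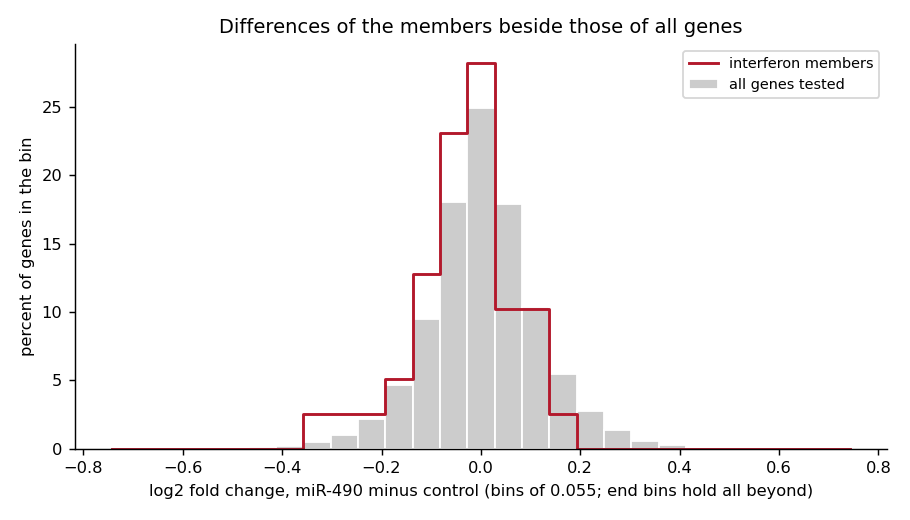
Share of genes (y axis, percent) by log2 fold change (x axis, miR-490 minus control, bins of 0.055) for all 18132 genes (grey bars) and the 39 members (red line). Line and bars peak in the same bin, and the line lies above the bars in the bins from -0.3575 up to the middle one and below them to its right, with 28.2% of them and 24.96% of all genes in the middle bin.

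Most members had further probe sets, which give another reading of the same arrays and are not replicates. In 27 members there were 72 others, among which 44 pointed the same way as the one used, 21 the opposite way, and 7 belonged to the 2 members with a difference of 0 or were 0 themselves. None passed an adjusted p of 0.05 (limma over all probe sets), and 5 had an unadjusted p under 0.05, against 2.50% of all probe sets lower and 2.70% higher at that level. Of the 5, sets of IFIH1, OAS1 and SAMHD1 were lower and sets of IFI44 (0.31) and CMPK2 (0.275) higher, all below the array median. For IFIH1 the other set, with a mean level of 2.74, gave -0.315, and for IFIT2 the other gave -0.17. IRF1 had -0.21 and -0.09 from its 2 others above the array median and 0.06 from a dim one. SAMHD1 was mixed, with -0.295, 0.03 and 0.14. The 3 others of IRF9 were all positive, from 0.055 to 0.185, and above the array median.

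**Figure D5:**
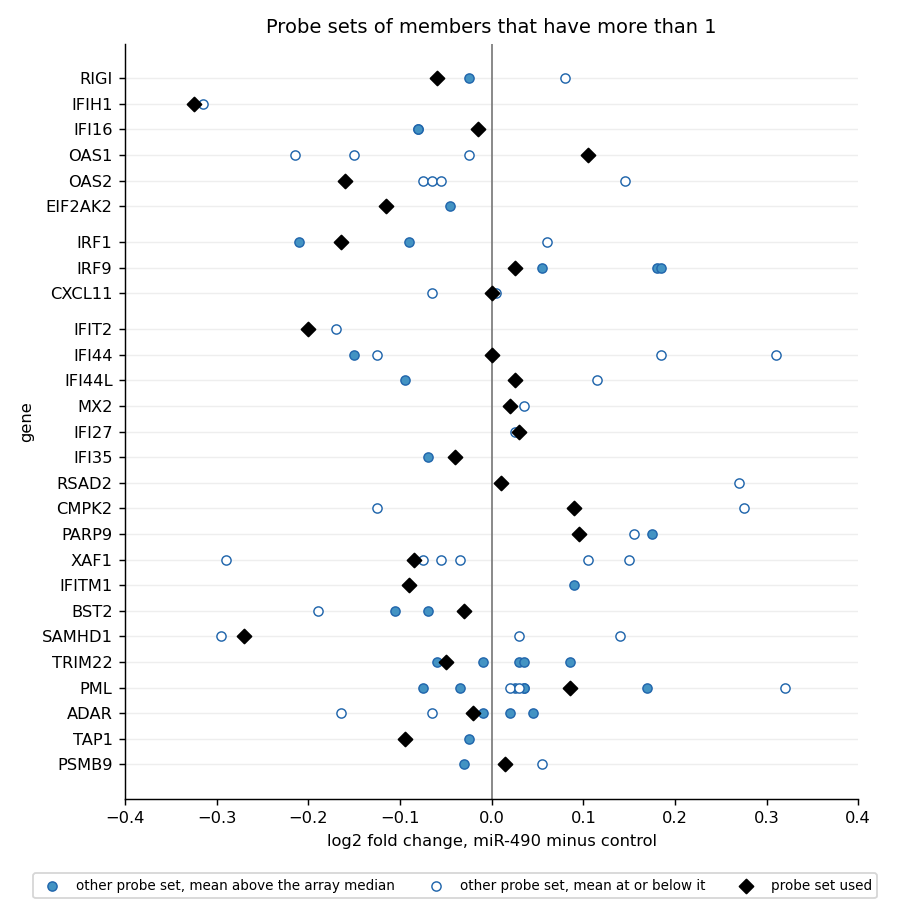
Log2 fold change (x axis, miR-490 minus control) of the probe set used (black diamonds) and of every other probe set (circles; filled where the mean is above the array median) in the 27 members with more than 1. The other sets of IFIH1 and IFIT2 lie near the diamond at -0.315 and -0.17, while all 3 of OAS1 lie on the other side of 0 from theirs.

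Other genes of the pathway, which are not members, were read for context. There were 30 such genes measured. None passed (limma, smallest adjusted p 0.785), 0 had an unadjusted p under 0.05, and 17 had lower and 13 higher means. Their median log2 fold change was -0.03. The interferon receptor chain IFNAR1 read 7.81 and 7.49 in controls and 7.62 and 7.65 with miR-490. IRF3, the factor that first switches on IFNB1, read 7.86 and 7.98 against 7.93 and 8.12. In both the groups overlapped.

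The DNA sensor CGAS was dim, at 2.98 and 2.94 in controls and 3.05 and 3.16 with miR-490, and its adaptor STING1 was below the array median on all 4 arrays, with a mean of 4.04 and a log2 fold change of -0.03. MAVS, the adaptor of the RNA sensors, was above it on all 4 arrays, at 7.30 to 7.55. The smallest p among these genes belonged to TLR9, a receptor for unmethylated DNA in endosomes, at 4.03 and 3.77 against 4.26 and 4.10. Next came IFNGR1, a chain of the interferon gamma receptor, at 8.44 and 8.48 against 8.32 and 8.35, and IRF2, an antagonist of IRF1, at 6.81 and 6.74 against 6.61 and 6.67. Each of the 3 had an adjusted p of 0.785 (limma).

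Markers checked the label and the presence of other cells. VIM, CD44, FN1, TNC and CHI3L1, genes of mesenchymal glioma cells, lay between 10.99 and 13.92, while the glial and stem markers NES, SOX2 and S100B were below the array median and GFAP at 5.56 to 5.81 just above it. Of 11 leukocyte markers, 4 had a mean above the array median: HLA-DRA at 10.80 to 10.91, CD68 at 10.16 to 10.25, CSF1R at 6.37 to 6.58 and TYROBP at 5.60 to 5.87. The means of 8 were lower with miR-490, and the list averaged 5.17 and 5.17 in controls and 5.11 and 5.12 with miR-490. The defining leukocyte gene PTPRC was at 2.43 to 2.62, below the lower quartile on all 4 arrays. PTPRC and CD3E had an unadjusted p under 0.05, both lower (limma adjusted p 0.785 each). That is 18.2% of the 11 markers, against 2.88% of all genes lower at that level. The 3 measured markers of plasmacytoid dendritic cells, the main interferon producers of blood, averaged 4.55 and 4.66 against 4.79 and 4.68. IL3RA and CLEC4C lay below the lower quartile on all 4 arrays, while TCF4 read 8.39 to 8.58, 3.31 above the array median. All 3 had higher means with miR-490, and none passed (limma, smallest adjusted p 0.785). The groups did not overlap in CLEC4C and TCF4, 66.7% of the 3, against 16.5% of all genes higher without overlap. Endothelial markers averaged 4.76 and 4.92 against 4.94 and 4.85. Of these 4, 2 had a mean above the array median: KDR at 6.81 to 7.11 and VWF at 5.16 to 5.43. Epithelial markers averaged 3.52 and 3.52 against 3.51 and 3.51, with 0 of 4 above it. PECAM1 and KRT8 were higher with miR-490 without overlap, 25% of each list, against 16.5% of all genes. The part of other cells in the interferon values was not tested.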

How the data were processed

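The authors deposited log2 expression per probe set, made with RMA per the submitters' processing notes (version not given in the sources used here). RMA makes the arrays' distributions alike, so a shift of most transcripts cannot be seen. Groups came from the sample titles. Of 49293 probe sets 44988 had 1 gene symbol in the platform annotation; 44961 took current symbols through RefSeq Entrez IDs. Each gene was read from its single-symbol probe set with the highest mean; no filter on level was used. limma 3.58.1 in R 4.3.3 (lmFit, eBayes, 2 residual and 2.45 prior degrees of freedom) compared the groups over 18132 genes, two-sided, with Benjamini-Hochberg adjustment. On simulated arrays of the same genes it recovered 0.1% of genes changed by 0.25 (log2) and 3% of those changed by 0.5. At 1 and 2 it recovered 75.1% and 96.1%. Differences as small as those of the members would thus seldom pass, and the lack of calls does not show that they are absent. The number of arrays limits precision (median SE 0.0725). The members and lists were chosen with earlier results of these data known. Arrays' values were printed for all sensors and signalling factors and, among effectors, for the 4 smallest p, the 2 highest levels and any with probe sets opposed at an unadjusted p under 0.05. Promoter and microRNA sequences are RefSeq's. Alternatives covered normalisation, variance prior, level filter, probe sets, an ordinary test, a replicate block and each array left out. Figures used matplotlib 3.10.9.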

Additional observations from a re-analysis of the deposited data

How the results depend on the processing

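Over 13 alternatives, 0 genes and 0 members passed the adjusted threshold in each (limma or the ordinary test). The count of members at an unadjusted p under 0.05 (limma), 4 as reported, fell to 2 in some alternatives. Among genes above the median level these were IRF1 and IFIT2, both lower, against 3.82% of genes lower and 2.93% higher. When all probe sets of a gene were averaged, IFIH1 was lower and IFNB1 higher, against 2.44% and 2.85%. Over all probe sets they were IFIH1 and SAMHD1, both lower, against 2.50% and 2.70% of probe sets. With the replicate block they were IFIH1 and IRF1, both lower, against 2.26% and 2.66% of genes. The cause was not tested, except that the filter on level removes IFIH1 and SAMHD1. The median of the signalling factors was -0.07 among genes above the median level, where 3 of the 6 remained, and that of the sensors ranged from -0.105 to -0.03 with 1 array left out. With 1 array left out, the remaining array of that group is taken to scatter as the other group does. Deviations of same-numbered arrays correlated at -0.0264 over genes, so the numbers were not taken as pairs. With 0 adjusted calls to begin with, the block's 0 says nothing about pairing. Of 497 single-member alternatives, 27 changed sign, in 18 members, with 0 calls. Signal near the bottom of the array limits IFNB1, CXCL10, CXCL11, MX1, RSAD2 and OAS3.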
